A study of Homo sapiens with 6 samples.

Results

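RRAGD, which encodes the Rag GTPase RagD, was examined together with the genes of the machinery it belongs to: the other Rag GTPases (RRAGA, RRAGB, RRAGC), folliculin and its partners (FLCN, FNIP1, FNIP2) and the transcription factors TFEB, TFE3 and MITF. Of these 10 genes, 9 were represented by a transcript cluster with a single gene symbol among the 22465 genes measured, and each of the 9 had 1 such cluster. FLCN is not analysed here. RRAGD was chosen by its difference between the groups compared below, and the other genes were selected for their place in the same pathway with earlier results of these arrays known, so the values of RRAGD are a description and carry no p-value.

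The arrays compared DSM OE with DAXX OE in MDA-MB-231, an established triple-negative breast cancer cell line. DSM OE cells stably overexpressed DAXX with both SUMO-interacting motifs, its binding sites for the small protein modifier SUMO, mutated, and DAXX OE cells stably overexpressed wild-type DAXX, a histone chaperone and transcriptional co-regulator. In both groups the tagged cDNA was carried by a lentivirus under a cytomegalovirus promoter, selection was with puromycin at 2 µg/mL, the cells kept their own DAXX gene, and RNA was taken after 24 h in complete medium. Each group was 1 stable line with 3 arrays described as biological replicates, and nothing in the sources used here says that these came from separate transductions, so p-values reflect only how much these cultures varied. No unmodified cells were analysed here.

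Rag GTPases act on the lysosome as pairs, in which RagA or RagB is joined to RagC or RagD. Loaded with the right nucleotides when amino acids are plentiful, the pair brings the growth kinase complex mTORC1 to the lysosomal surface. Folliculin, bound to FNIP1 or FNIP2, stimulates GTP hydrolysis by RagC and RagD, and this state of RagC or RagD also recruits TFEB, TFE3 and MITF for phosphorylation by mTORC1, which keeps them out of the nucleus. When released, these factors bind E-box sequences and switch on genes of lysosomes and autophagy, and RRAGD is itself known as one of their targets.

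The core of such E-boxes, CACGTG, was searched on both strands in promoters listed by RefSeq (GRCh38.p14), each running from 250 bases before to 50 bases after a gene's start. Of the 10 genes 8 had an entry, with 13 promoters in all. RRAGD and RRAGA had none and were not searched. The 6 runs below are shown because they hold the kind of letters that TFE factors are known to read. The match is in capitals, with 20 bases on each side. A match is a description of the letters and not a measured binding site.
RRAGC chr1:38859859-38859904, minus strand: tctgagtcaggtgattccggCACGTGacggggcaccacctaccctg
FNIP1 upstream chr5:131797167-131797212, minus strand: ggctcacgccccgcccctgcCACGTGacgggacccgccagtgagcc
FNIP1 downstream chr5:131797086-131797131, minus strand: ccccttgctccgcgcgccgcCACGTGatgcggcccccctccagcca
RRAGB first chrX:55717614-55717659, plus strand: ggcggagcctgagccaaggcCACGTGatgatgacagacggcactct
RRAGB second chrX:55717704-55717749, plus strand: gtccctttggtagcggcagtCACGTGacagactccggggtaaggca
FNIP2 chr4:158805677-158805723, plus strand: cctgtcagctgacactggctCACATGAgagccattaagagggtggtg

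The core thus occurred in 3 of the 13 promoters, those of RRAGC, FNIP1 and RRAGB, while 7.26% of all 35116 promoters of this length hold it. RRAGB held 3 matches, which 0.094% of all promoters reach or exceed, and FNIP1 held 2, which 0.664% reach or exceed. In the gene's own direction, all 6 matches are followed by an A, as are 32% of the 2821 matches in all promoters. The number of matches per promoter and the next base were not in the planned search. Their shares are descriptions of these few sequences. The second RRAGB match, 25 bases before the start, is part of the longer form TCACGTGA, which 0.98% of all promoters hold, and its last match, 7 bases after the start, is not printed. Another motif, TCATGTG, was found in 1 of the 13 promoters, of an FNIP2 start, against 2.92% of all. It is shown above as CACATGA, its form on the other strand. None of the 3 genes with an E-box core, nor FNIP2, passed the test between the groups described next.

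Signals are log2 values from robust multi-array averaging (RMA), so a difference of 1 is a doubling, and differences are DSM OE minus DAXX OE. DAXX OE replicate 1 was unlike the remaining arrays: across genes, which do not count as replicates, it correlated with them at 0.973 to 0.980, while the other 5 correlated among themselves at 0.996 to 0.998. Its deviation ran with signal level, from a median of 0.32 above DAXX OE replicates 2 and 3 in bin 2 of 10 bins of rising signal to -0.39 in bin 9. Results that rest on it are given with and without it. Without it, DAXX OE has 2 arrays, and because the array was singled out on these same data those p-values may be too small. DAXX, the overexpressed gene, had a signal of 9.34 ± 0.03 in DSM OE and 8.86 ± 0.16 in DAXX OE (log2, SD, n = 3), and this signal does not separate the introduced from the cells' own transcripts. The DAXX difference was 0.49 (SE 0.10, limma adjusted p = 0.416), a 1.4-fold higher signal in DSM OE, and 0.40 (adjusted p = 0.0144) without DAXX OE replicate 1. DAXX had 6 clusters, of which this is the one with the highest signal, and the mean of all 6 gave a difference of 0.29 (adjusted p = 0.666). The mesenchymal markers VIM, CD44, AXL, MSN, ZEB1 and SPARC were above the background probes on all arrays. So were 6 of 7 measured luminal and epithelial markers (ESR1, CDH1, EPCAM, KRT8, KRT18 and GATA3), while the progesterone receptor gene PGR was above them on none. As 19312 of all 22465 genes were above background on all arrays, this says little about expression. The mesenchymal markers lay in bin 10 of signal level, except SPARC in bin 5. KRT8 and KRT18 also lay in bin 10, EPCAM in bin 7 and GATA3 in bin 6, but ESR1 and CDH1 only in bin 3. No gene of either list passed the test, and EPCAM had groups that did not overlap, with a difference of 0.33 (SE 0.14, adjusted p = 0.682) and, without DAXX OE replicate 1, 0.18 (SE 0.04, adjusted p = 0.126). The groups also separated upward in KRT8 and MSN, as in 13.7% of all genes with 6 arrays.

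**Figure D1:**
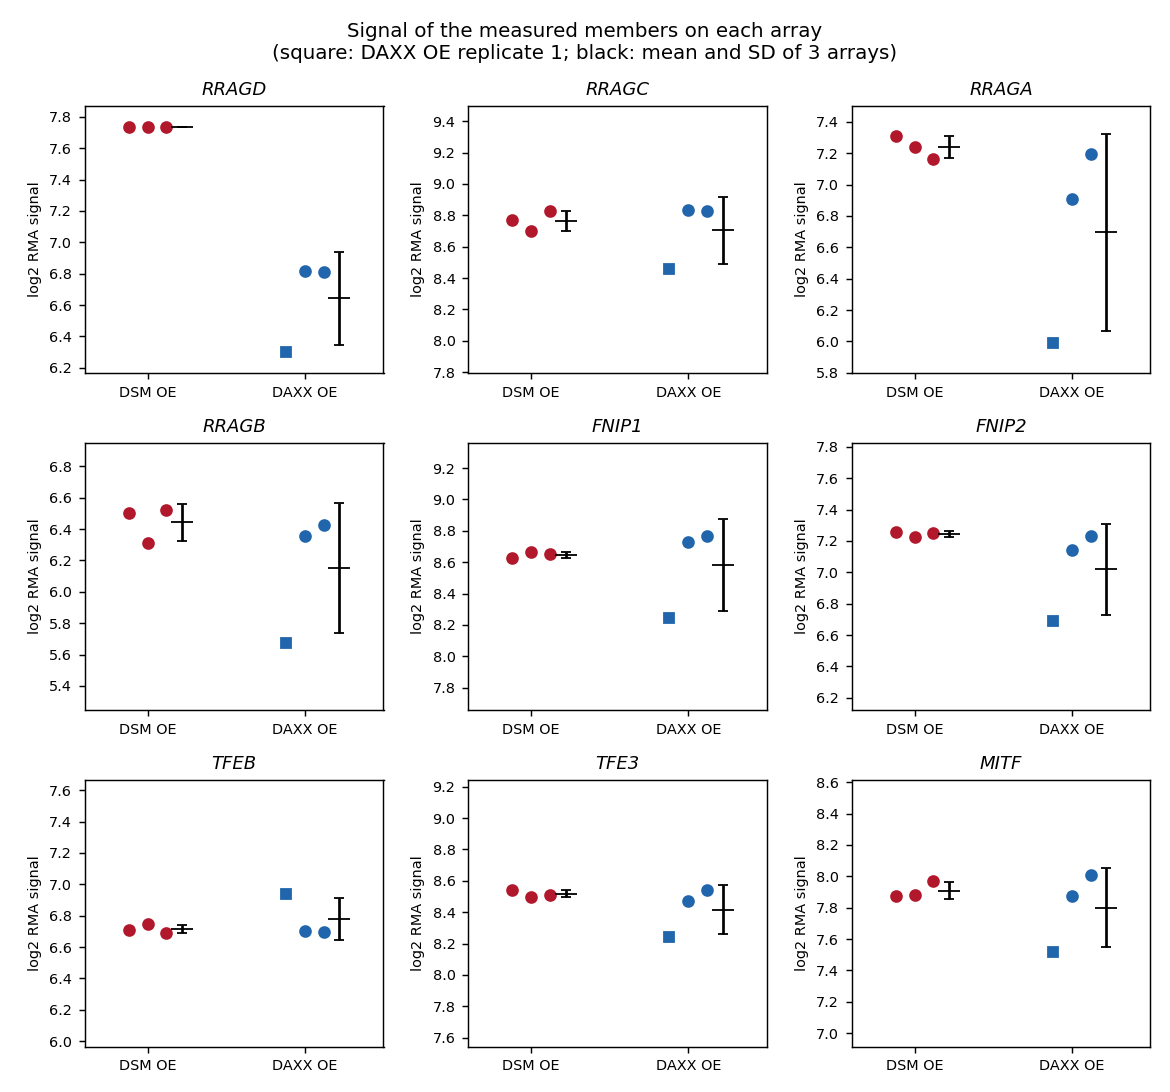
Log2 RMA signal (vertical axis, the same span of 1.7 in every panel) of the 9 measured genes on each array, with DSM OE in red on the left and DAXX OE in blue on the right. The square is DAXX OE replicate 1, and the black mark shows the mean and SD of 3 arrays. RRAGD alone has all 3 DSM OE arrays above all 3 DAXX OE arrays.

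RRAGD was the gene of this machinery that separated the groups. Its log2 signal was 7.73, 7.74 and 7.74 on the DSM OE arrays, against 6.30, 6.82 and 6.81 on the DAXX OE arrays. The 3 DSM OE arrays spanned only 0.00129 and DAXX OE replicates 2 and 3 differed by 0.00663, while DAXX OE replicate 1 lay below both. The groups did not overlap. The difference was 1.09 (SE 0.15), a 2.13-fold higher signal in DSM OE. Without DAXX OE replicate 1 it was 0.92 (SE 0.04), or 1.89-fold, and after cyclic loess normalization of all 6 arrays it was 1.03 (SE 0.11). Of the 22465 genes 10 were higher in DSM OE by more than this with 6 arrays, and 15 without replicate 1. Because this difference is what brought RRAGD into view, its rank is given as a description. RNA of a whole culture does not tell a higher level per cell from a larger share of cells with the transcript.

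RRAGC, which encodes the closest relative of RagD and fills the same side of the Rag pair, showed no such separation. Its signal was 8.77, 8.70 and 8.83 in DSM OE, against 8.46, 8.83 and 8.83 in DAXX OE. The groups overlapped, and the only array that lay apart was DAXX OE replicate 1. The difference was 0.06 (SE 0.12, limma adjusted p = 0.807, 95% interval -0.22 to 0.34) and, without that array, -0.06 (SE 0.05, interval -0.18 to 0.06). After cyclic loess it was -0.07 (SE 0.05).

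RRAGA, one of the genes for the other side of the pair, had the largest difference after RRAGD with 6 arrays, but its DAXX OE arrays were far apart. It read 7.31, 7.24 and 7.17 in DSM OE, against 5.99, 6.91 and 7.19 in DAXX OE. DAXX OE replicate 3 lay inside the DSM OE range. The difference was 0.54 (SE 0.28, adjusted p = 0.682, 95% interval -0.11 to 1.20), falling to 0.19 (SE 0.09, adjusted p = 0.400, interval -0.03 to 0.41) without replicate 1. On that array RRAGA deviated from its mean on the other DAXX OE arrays by -1.06, although the median deviation over genes of like level was -0.02.

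RRAGB, which encodes a close relative of RagA, followed the same course at a lower amplitude. Its signal was 6.50, 6.31 and 6.52 in DSM OE, against 5.67, 6.35 and 6.43 in DAXX OE. Apart from DAXX OE replicate 1 the arrays of both groups were interleaved. The difference was 0.29 (SE 0.20, adjusted p = 0.682) with 6 arrays and 0.05 (SE 0.07, adjusted p = 0.814) without that array. RRAGA and RRAGB transcripts are similar in their coding parts, and how far their probes tell them apart was not tested.

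**Figure D2:**
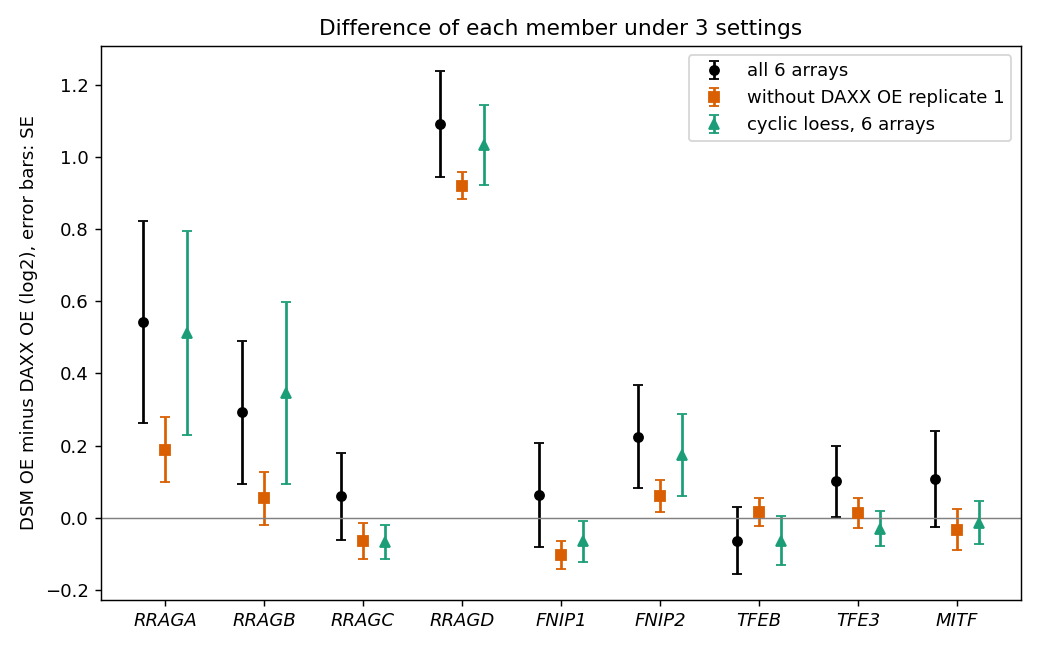
Difference DSM OE minus DAXX OE (log2) of each gene, with SE as error bars, for all 6 arrays (black circles), without DAXX OE replicate 1 (orange squares) and after cyclic loess normalization of 6 arrays (green triangles). RRAGD lies between 0.92 and 1.09 in all 3 settings, and the other 8 genes lie between -0.10 and 0.19 without replicate 1.

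The folliculin partners split in sign once DAXX OE replicate 1 was left out. FNIP1 read 8.63, 8.66 and 8.65 in DSM OE, against 8.25, 8.73 and 8.77 in DAXX OE. All 3 DSM OE arrays lay below DAXX OE replicates 2 and 3 and above replicate 1. The difference was 0.06 (SE 0.14, adjusted p = 0.828) with 6 arrays and -0.10 (SE 0.04, adjusted p = 0.290) without replicate 1, where the groups did not overlap. Such separation below DAXX OE held for 13.5% of all genes in that 5-array comparison, and separation above it for 18.1%.

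FNIP2, the second folliculin partner, had signals of 7.26, 7.22 and 7.25 in DSM OE, against 6.69, 7.14 and 7.23 in DAXX OE. DAXX OE replicate 3 fell within the DSM OE values. The difference was 0.23 (SE 0.14, adjusted p = 0.682) with 6 arrays and 0.06 (SE 0.04, adjusted p = 0.619, 95% interval -0.05 to 0.17) without replicate 1. Neither partner passed the test in either fit.

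Among the TFE factors, TFEB was the one gene in which DAXX OE replicate 1 read high. Its signal was 6.71, 6.74 and 6.69 in DSM OE, against 6.94, 6.71 and 6.70 in DAXX OE. Setting replicate 1 aside, the 5 arrays lay within a narrow band. The difference was -0.06 (SE 0.09, adjusted p = 0.748), and 0.01 (SE 0.04, 95% interval -0.08 to 0.11) without replicate 1.

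TFE3, which shares most of its targets with TFEB, read 8.54, 8.50 and 8.51 in DSM OE, against 8.24, 8.47 and 8.54 in DAXX OE. MITF, the family's melanocyte and osteoclast regulator, read 7.87, 7.88 and 7.97 in DSM OE, against 7.52, 7.87 and 8.01 in DAXX OE. In both genes replicate 1 of DAXX OE was the lowest array and the remaining arrays overlapped. The TFE3 difference was 0.10 (SE 0.10, adjusted p = 0.686) with 6 arrays and 0.01 (SE 0.04) without replicate 1, and the MITF difference was 0.11 (SE 0.13, adjusted p = 0.714) and -0.03 (SE 0.06). Of 5 measured melanocyte genes, a lineage in which MITF is active, 2 were above background on all arrays, the pigment gene TYRP1 was on none, and 0 passed the test. Of 5 measured macrophage and osteoclast genes 4 were above background on all arrays, and 0 passed the test. Of all 22465 genes 19312 were above background on all arrays. MITF has several alternative starts, which the single cluster does not separate.

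Counted together, 0 of the 9 genes passed the limma threshold of adjusted p 0.05 with 6 arrays, where 0.0579% of all genes passed as higher in DSM OE and 0.00445% as lower. At an unadjusted p under 0.05 the count was 1, RRAGD, and the background 5.16%. RRAGD was also the only one of the 9 past the looser cutoff that the methods state for gene lists, a fold beyond 1.3 with an unadjusted p under 0.05, which 1.74% of all genes passed as higher and 0.503% as lower. The groups did not overlap in 1 of the 9, against 13.7% of all genes separated as higher and 5.5% as lower. Without DAXX OE replicate 1, RRAGD passed the adjusted threshold and the other 8 did not, with 0.872% of all genes passing as higher and 0.374% as lower. After cyclic loess none of the 9 passed, with 0.111% of all genes passing in either direction. RRAGD was chosen on this contrast, so nothing is read from these counts for it.

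The median difference over the 9 genes was 0.11 with 6 arrays, against 0.01 over all genes, and 0.01 without DAXX OE replicate 1, against 0.00401 over all genes. For the 8 genes other than RRAGD it was 0.10 and 0.01. All of the 9 but RRAGB lie above the median signal level, and over all genes above that level the median difference was 0.0952 with 6 arrays. DAXX OE replicate 1 gave the lowest of the 6 values in 8 of the 9 genes, TFEB being the exception. Its deviation from DAXX OE replicates 2 and 3 was -0.37 in RRAGC, -0.26 in TFE3 and -0.42 in MITF, near the median of -0.39 or -0.37 for genes of their level. It was -0.51 in RRAGD, -0.50 in FNIP2, -0.72 in RRAGB and -1.06 in RRAGA, in level bins with medians of -0.02 or, for RRAGB, 0.18. The part this array plays in the 6-array differences is shown by the values without it, while what set the array apart was not tested.

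**Figure D3:**
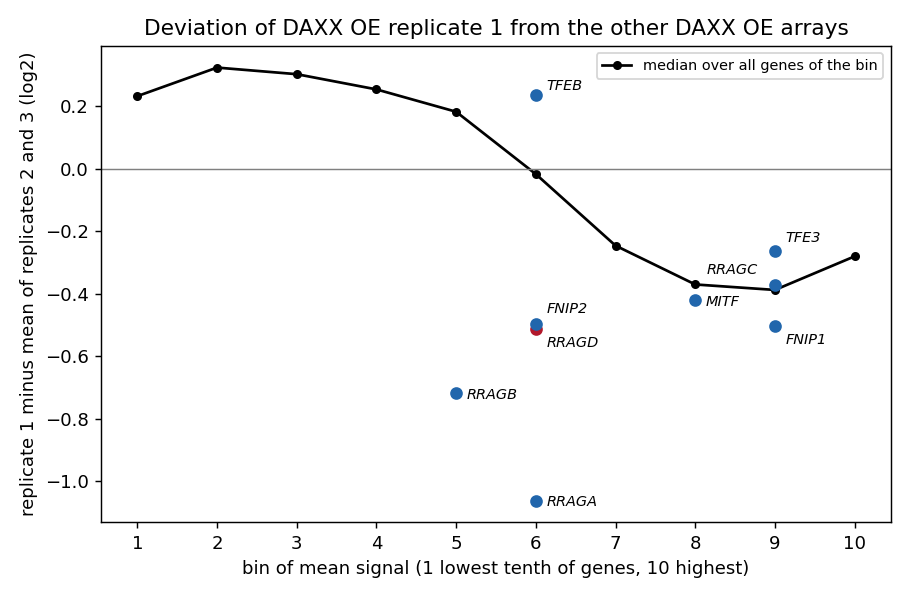
Signal of DAXX OE replicate 1 minus the mean of DAXX OE replicates 2 and 3 (log2, vertical axis) against the bin of mean signal (10 bins of equal gene number, horizontal axis). The black line joins the medians over all genes of each bin, RRAGD is red and the other 8 genes are blue. RRAGA, at -1.06, lies farthest below its bin's median of -0.02.

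Much of the likeness between these genes lay in 1 array. Over the 6 arrays TFEB correlated with the other genes at -0.63 (RRAGD) to -0.98 (RRAGC and RRAGB), and RRAGA with FNIP2 at 0.99. Without DAXX OE replicate 1, TFEB and RRAGB gave -0.71 and RRAGA and FNIP2 gave 0.91, whereas RRAGA and RRAGC turned from 0.85 to -0.56. These correlations share arrays and are descriptions over 6 or 5 points.

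The signals most like RRAGD over the 6 arrays were sought among 3537 genes with a mean above the median gene and a range of at least 0.5. EMP2, an epithelial membrane protein gene, had the highest Pearson correlation, 0.999, followed by the zinc finger gene ZNF625 (0.998), GLUL, which encodes glutamine synthetase (0.998), the ectoenzyme gene ENPP4 (0.997) and DAXX itself (0.997). Each repeats the RRAGD order, with DSM OE highest and DAXX OE replicate 1 lowest. EMP2 read 8.58, 8.59 and 8.59 in DSM OE, against 8.03, 8.26 and 8.24 in DAXX OE, and GLUL read 7.70, 7.69 and 7.70 in DSM OE, against 7.06, 7.27 and 7.31 in DAXX OE. The differences were 0.41 for EMP2, 0.67 for ZNF625, 0.49 for GLUL and 1.20 for ENPP4, and 0.34, 0.56, 0.41 and 1.0 in the same order without DAXX OE replicate 1. As these genes were selected on their likeness to RRAGD, their differences are given without a test. DAXX, here the highest of its 6 clusters, was picked by the same rule, so its likeness to RRAGD restates that selection. With the mean of its clusters the DAXX difference was 0.29 with 6 arrays. The part of DAXX in the RRAGD difference was not tested.

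The genes beside RRAGD on chromosome 6 had smaller differences than RRAGD. The 4 measured protein-coding genes on each side, a set chosen after the data were seen, had differences from -0.16 to 0.47 with 6 arrays and from -0.11 to 0.20 without DAXX OE replicate 1. None of the 8 passed the test in either fit (lowest adjusted p 0.682 and 0.0804). The groups separated upward in UBE2J1, the immediate neighbour on the lower-coordinate side (0.20, SE 0.11, and 0.10, SE 0.04, without replicate 1). In SRSF12, above background on 2 arrays, they separated downward with 6 arrays and without replicate 1 (-0.15 and -0.11). Over all genes 13.7% separated upward and 5.5% downward with 6 arrays, and 18.1% and 13.5% without replicate 1. ANKRD6, the immediate neighbour on the other side, overlapped with 6 arrays (0.13, SE 0.09) and separated upward without replicate 1 (0.20, SE 0.04, adjusted p = 0.0804).

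Other genes of the pathway were taken from 8 lists with 91 genes, of which 82 were measured. Of these, 0 passed the adjusted threshold with 6 arrays, and 6 had an unadjusted p under 0.05, all higher in DSM OE. Without DAXX OE replicate 1 that unadjusted count was 22, of which 12 were higher and 10 lower. Of all 22465 genes, 3381 were under 0.05 in that fit, 1990 higher and 1391 lower, and 1159 with 6 arrays. The groups of the 82 genes did not overlap in 21 as higher and in 2 as lower, beside 13.7% and 5.5% of all genes. Without DAXX OE replicate 1 these counts were 22 and 21, beside 18.1% and 13.5% of all genes. Such shares were not counted for genes of like signal level, so nothing is read from these counts. Over all genes above the median signal level, where most of the 82 lie, the median difference was 0.0952 with 6 arrays. Over the 82 it was 0.09 with 6 arrays, 0.01 without DAXX OE replicate 1 and 0.00 after cyclic loess, and DAXX OE replicate 1 was the lowest array in 72 of them. Without that array 2 genes passed, CTSF and CTSL, both higher, beside 0.872% of all genes passing as higher and 0.374% as lower.

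**Figure D4:**
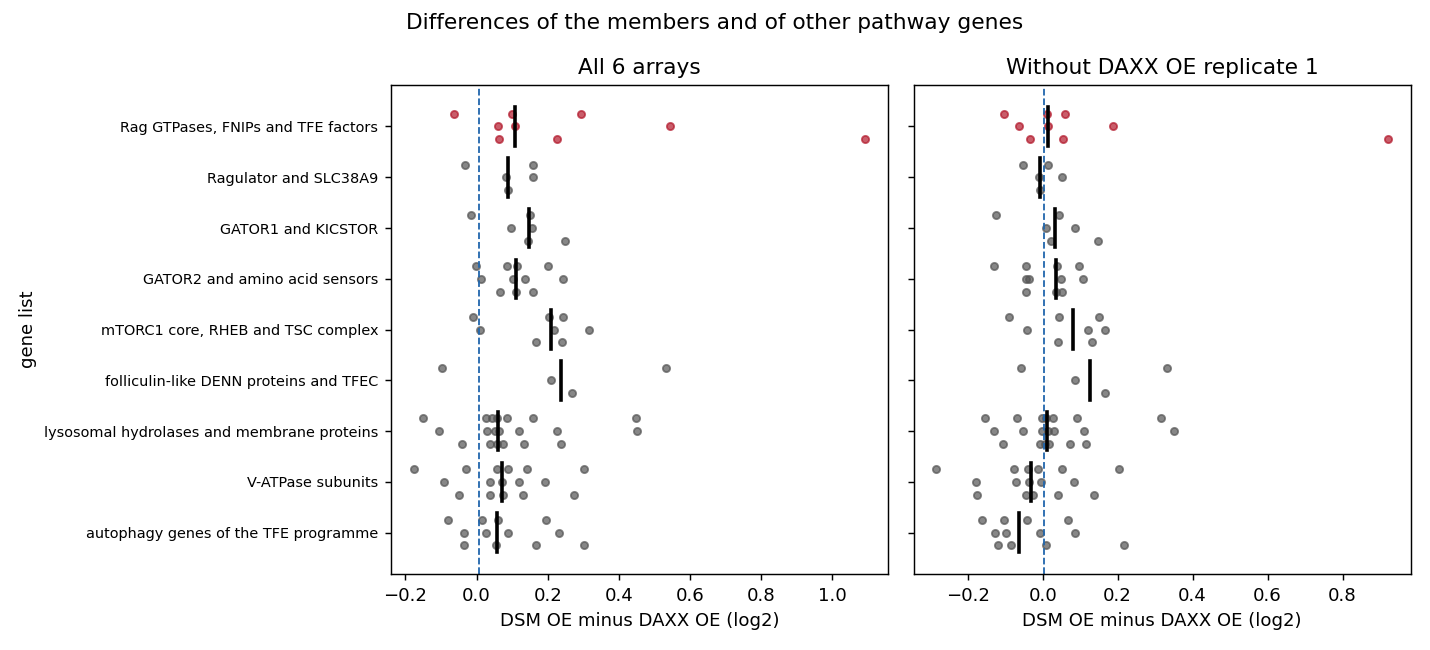
Difference DSM OE minus DAXX OE (log2, horizontal axis) of each measured gene in the Rag, FNIP and TFE set (red) and in 8 other pathway lists (grey), with all 6 arrays on the left and without DAXX OE replicate 1 on the right. Black bars are list medians and the dashed line is the median over all genes. With 6 arrays all 8 pathway medians lie above that line, from 0.06 to 0.24, and without the array they lie from -0.06 to 0.13. Over all genes above the median signal level, not drawn, the median was 0.0952 with 6 arrays.

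Ragulator, the lysosomal anchor of the Rag proteins, was represented by LAMTOR2 to LAMTOR5 together with SLC38A9, an arginine-sensing transporter. Of the 5 genes 4 had a positive difference with 6 arrays (median 0.09) and 2 without DAXX OE replicate 1 (median -0.01), and 0 passed in either fit. LAMTOR5 differed by 0.16 (SE 0.13) and SLC38A9 by 0.16 (SE 0.14) with 6 arrays, and by 0.02 and -0.01 without that array.

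GATOR1, which turns RagA and RagB off, and its anchor KICSTOR gave a median of 0.15 over 6 genes and of 0.03 without DAXX OE replicate 1. The GATOR1 subunit gene NPRL3 read 8.44, 8.48 and 8.41 in DSM OE, against 7.99, 8.26 and 8.33 in DAXX OE. Its groups did not overlap, but neither fit called it (difference 0.25, SE 0.11, adjusted p = 0.682, and 0.15, adjusted p = 0.202). NPRL2, its partner subunit, differed by 0.16 (SE 0.09) with 6 arrays and 0.09 (SE 0.04) without replicate 1, and its groups also separated upward. With 6 arrays 13.7% of all genes separated in this way. GATOR2, which restrains GATOR1, and amino acid sensors of the pathway (11 genes) had a median of 0.11 with 10 positive differences, and of 0.04 with 6 positive and 5 negative without replicate 1. SESN1, a sestrin, differed by 0.24 (SE 0.13) with 6 arrays and 0.11 (SE 0.06) without replicate 1, and WDR24, a GATOR2 subunit, by 0.14 (SE 0.08) and 0.10 (SE 0.04). Both were among 3 of the 11 genes whose groups separated upward with 6 arrays.

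The mTORC1 core, its activator RHEB and the TSC complex (8 genes) had a median of 0.21 with 6 arrays and 0.08 without DAXX OE replicate 1, with 0 genes past the threshold in either fit. MLST8, a subunit of the complex, differed by 0.22 (SE 0.10, adjusted p = 0.682) with 6 arrays and 0.13 (SE 0.05, adjusted p = 0.250) without replicate 1. DEPTOR, an inhibitor of mTOR, was among the genes in which replicate 1 was not the lowest array: it read 5.97, 5.87 and 5.93 in DSM OE, against 5.76, 5.72 and 5.79 in DAXX OE. Its difference was 0.17 in both fits (SE 0.08 and 0.05, adjusted p = 0.682 and 0.185). MLST8 and DEPTOR were among 3 of the 8 genes whose groups separated upward with 6 arrays, beside 13.7% of all genes.

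C9orf72 and SMCR8, whose proteins form a complex built like that of folliculin and its partners, both had all DSM OE arrays above all DAXX OE arrays, as did WDR41, the third subunit (difference 0.21, SE 0.12, and 0.09, SE 0.04, without DAXX OE replicate 1). With 6 arrays 13.7% of all genes separated in this way. C9orf72 read 6.78, 6.71 and 6.89 in DSM OE, against 5.85, 6.36 and 6.57 in DAXX OE. The difference was 0.53 (SE 0.18, adjusted p = 0.682) with 6 arrays and 0.33 (SE 0.08, adjusted p = 0.128) without DAXX OE replicate 1. For SMCR8 it was 0.27 (SE 0.11) and 0.17 (SE 0.04), with adjusted p of 0.682 and 0.160. TFEC, the remaining TFE family gene, was above background on none of the arrays.

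The lysosomal hydrolases and membrane proteins, typical products of TFE factor targets, had 0 genes past the threshold with 6 arrays and 2 without DAXX OE replicate 1. In the fit without that array 0.872% of all genes passed as higher and 0.374% as lower. Of 20 measured genes 17 had a positive difference with 6 arrays (median 0.06) and 12 without DAXX OE replicate 1 (median 0.01), and 8 after cyclic loess (median -0.03). CTSL, the gene for the protease cathepsin L, read 8.71, 8.66 and 8.70 in DSM OE, against 7.97, 8.33 and 8.42 in DAXX OE. CTSF, for cathepsin F, read 6.84, 6.83 and 6.80 in DSM OE, against 6.17, 6.47 and 6.47 in DAXX OE. Both had groups that did not overlap, as 13.7% of all genes did as higher with 6 arrays. CTSF differed by 0.45 (SE 0.10, adjusted p = 0.540) with 6 arrays and 0.35 (SE 0.04, adjusted p = 0.0186) without replicate 1. CTSL differed by 0.45 (SE 0.13, adjusted p = 0.682) and 0.32 (SE 0.05, adjusted p = 0.0370). NPC1 gave 0.24 and 0.11, CLCN7 0.23 and 0.11, and CTSB 0.16 and 0.09. LAMP1, a major lysosomal membrane protein gene, gave -0.04 and -0.11, and the lysosomal channel gene MCOLN1 0.12 and 0.02. GPNMB, a common readout of TFE activity, gave -0.15 and -0.13 at a low signal, in bin 3 of 10. Apart from CTSF and CTSL none of these genes passed the threshold. Over the 20 genes the groups separated upward in 5 and downward in 1, GPNMB, with 6 arrays. Without replicate 1 these counts were 6 and 5, beside 18.1% and 13.5% of all genes.

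The V-ATPase, the proton pump of lysosomes to which Ragulator is docked, had 16 genes with a median of 0.07 with 6 arrays and -0.03 without DAXX OE replicate 1. Its accessory subunit gene ATP6AP1 differed by 0.30 (SE 0.11, adjusted p = 0.682) and 0.20 (SE 0.05, adjusted p = 0.141), and ATP6V0A1 by 0.27 (SE 0.12) and 0.14 (SE 0.04). Without replicate 1, 11 of the 16 differences were negative. The groups then separated downward in 5 genes and upward in 4, beside 13.5% and 18.1% of all genes. Of the 16 genes, the one with the lowest p in that fit was ATP6V1D, a subunit of the catalytic sector. It gave -0.18 (SE 0.11) with 6 arrays and -0.28 (SE 0.05, adjusted p = 0.0533) without replicate 1. The 12 autophagy genes had medians of 0.06 and -0.06. ATG9A, which encodes a membrane protein of early autophagosomes, differed by 0.30 (SE 0.10, adjusted p = 0.682) and 0.22 (SE 0.05, adjusted p = 0.128), and GABARAPL1 by 0.23 (SE 0.14) and 0.09 (SE 0.06). Without replicate 1, 8 of the 12 differences were negative. The groups then separated downward in 6 genes and upward in 1, beside the same shares of all genes, 13.5% and 18.1%. UVRAG, a partner of the lipid kinase complex of autophagy, gave 0.03 (SE 0.16) with 6 arrays and -0.16 (SE 0.04, adjusted p = 0.134) without replicate 1, and SQSTM1, the autophagy receptor p62, gave -0.04 and -0.08. In both lists 0 genes passed in either fit.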

How the data were processed

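RNA of 6 MDA-MB-231 cultures was measured on 1-colour GeneChip Human Transcriptome Array 2.0 arrays from 200 ng of total RNA per the labels. The authors deposited log2 signals made by RMA (background correction, quantile normalization, summary per cluster), with Affymetrix Expression Console 1.3 in the submitters' processing notes. The methods describe ComBat for arrays of different times. They do not say if these 6 arrays went through it. RMA compresses low signals and has no counting depth, so the number of arrays limits precision.

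Clusters with a single symbol in GEO's platform annotation were used, 1 per gene with the highest mean over 6 arrays, without a filter. The groups were compared with limma 3.58.1 in R 4.3.3 (lmFit, eBayes, 2-sided) over all 22465 genes, Benjamini-Hochberg adjusted at 0.05, a procedure tested on simulated data. The simulated noise was normal, with spreads that left out DAXX OE replicate 1, so it does not show how the procedure behaves with that array. All adjusted p-values come from limma. Above background means above the median of 23 background probe sets on an array.

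The genes, lists, tests and alternatives were chosen with earlier results of these data known. All 9 genes were named. The 5 genes most like RRAGD came from a correlation rule. From each pathway list the rule named up to 2 genes per direction past the threshold, or else the 2 with the lowest unadjusted p. EPCAM, WDR41, ATP6V1D, UVRAG, LAMP1, MCOLN1, GPNMB, NPC1, CLCN7, CTSB, SQSTM1, TFEC and the neighbours of RRAGD were added after the values were seen. Medians were also taken without RRAGD, an alternative added after seeing the data. Alternatives were each array left out, the replicate number as a block, cyclic loess, quantile normalization, median centring, genes above the median level, the mean of a gene's clusters, trended and robust moderation, and the study's thresholds.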

Additional observations from a re-analysis of the deposited data

How the results depend on the processing

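RRAGD stayed higher in DSM OE under every alternative that was run, with a difference from 0.92 to 1.18 over the 6 fits that each left out 1 array. The 14 genes called over all genes became 40 with the replicate number as a block, 25 after cyclic loess, 5 among genes above the median level, 505 at the study's thresholds, and 1 to 280 with 1 array left out, the highest without DAXX OE replicate 1. The Rag, FNIP and TFE genes called went from 0 to 1 with the replicate block, at the study's thresholds and without DAXX OE replicate 1. Over the arrays left out the count was 0 to 1. The gene called was RRAGD, which was chosen on this contrast, so nothing is read from these calls for it. The pathway genes called went from 0 to 3 at the study's thresholds and 0 to 2 with arrays left out. The replicate numbers were not treated as pairs, because same-numbered arrays deviated together with r of -0.05, -0.30 and 0.17. The median over the 9 genes was -0.014 after cyclic loess and 0.015 to 0.21 with 1 array left out.

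Some differences turned sign. RRAGC was -0.0679 and FNIP1 -0.0661 after cyclic loess, and -0.0677 and -0.0629 after quantile normalization. TFE3 was -0.0309 and -0.0336 under these, and MITF -0.0138 after cyclic loess. With 1 array left out the ranges were -0.0642 to 0.12 for RRAGC, -0.10 to 0.16 for FNIP1, -0.10 to 0.0148 for TFEB, -0.0329 to 0.21 for MITF and -0.00865 to 0.25 for SLC38A9, each turning only without DAXX OE replicate 1. No other sign changed among the 29 genes named by rule other than RRAGD, and the causes were not tested. Signals near background, such as those of TFEC, limit what could be seen.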
